A study of Canis lupus familiaris with 34 samples.

Results

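The 40 genes described here are cell cycle and proliferation genes, chosen by symbol: MKI67, TOP2A, CDK1, the cyclins A2, B1 and B2, the mitotic kinases, the spindle and kinetochore genes, the MCM helicase subunits and the S phase genes around them. Each symbol was looked up in the list of 23768 features that the table of counts holds, and all 40 had a feature. All 40 also passed the minimum of 100 counts summed over the dogs, which 19568 features passed. They were measured by polyA RNA sequencing in mitral valves of 34 privately owned Cavalier King Charles Spaniels of about 10 years that were put down at their owners' choice. The group without heart failure, 10y-noCHF, held 19 dogs (10 females and 9 males), and the group with congestive heart failure (CHF), 10y-MMVD-CHF, held 15 dogs (6 females and 9 males). Myxomatous mitral valve disease (MMVD) is a degeneration of the valve leaflets, and nearly all dogs of both groups had it, since the 10y-noCHF dogs were in the stages A to B2 of the American veterinary cardiology scheme and the 10y-MMVD-CHF dogs in stage C. The comparison is therefore between dogs without and with heart failure, not between healthy and diseased valves. By the paper, the 10y-noCHF group was mixed, and MMVD was severe in several of its dogs. The stage and age of a single dog cannot be read from the labels.

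A dividing cell copies its DNA in S phase and separates the copies in mitosis, and it makes the messengers for these steps in turn. Genes of the G1/S wave (E2F1, the MCM helicase, PCNA and the enzymes that supply nucleotides) are read mainly through E2F factors once the retinoblastoma protein lets go, and genes of the G2/M wave (cyclin B, CDK1, spindle and kinetochore genes) follow through the DREAM, MYBL2 and FOXM1 complexes. The adult mitral leaflet is made mostly of valve interstitial cells, which rarely divide. The level of these genes in a piece of tissue can depend on how many cells are in cycle, which was not measured here. By these waves the 40 genes were split into 11 G1/S genes and 29 G2/M genes, and by function into 7 groups. In bulk tissue, fewer cells of a type and less RNA per cell cannot be told apart.

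The libraries held 46185256 to 82361245 counts per dog, and the 40 genes together took at most 0.0518% of them. Of the positive counts of the 40 genes, 76.5% were even, since both reads of a pair were counted. The tissue label was checked against markers. All 10 valve interstitial markers were well above 0 in each dog, with the lowest value, 112 counts per 1000000 counts of the library (CPM), in PDGFRA. Cardiomyocyte markers summed to 56.7 to 53620 CPM, so the share of heart muscle in the samples varied widely, in 10y-noCHF dogs (56.7 to 26540 CPM) as in 10y-MMVD-CHF dogs (78.5 to 53620 CPM). CAV1047, a 10y-MMVD-CHF female, had both the most cardiomyocyte signal and the fewest counts.

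Levels were low. Mean levels ran from 0.937 CPM in TTK, a spindle checkpoint kinase, to 41.04 CPM in MCM7, a subunit of the replicative helicase, and 35 of the 40 genes lay below the median level of all tested features. The fewest counts of a gene in a dog were 12, and 9 of the 40 genes had fewer than 50 counts in some dog, so small differences in those genes were not detectable. Only 4 of the genes (CCNB2, ASPM, TYMS and BIRC5) were counted over exons of canine RefSeq models, and the other 36 over the whole span of an aligned human gene, introns included. Levels per kilobase of the counted length (RPKM) are thus not comparable between the kinds of model. Among span models they also depend on how much of the span is intron, so their order is no sure ranking of transcript levels. The counted length was 6635 bases for MCM7 and 40303 bases for TTK. Among the 36 span models, MCM7 was highest at 6.19 RPKM and TTK lowest at 0.0233 RPKM, and MKI67 stood at 0.537 RPKM and TOP2A at 0.410 RPKM. Among the 4 exon models, TYMS was highest at 13.6 RPKM, followed by BIRC5 at 3.66, CCNB2 at 0.825 and ASPM at 0.422 RPKM.

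Some of the counted models share bases with other features, and a read was counted for every feature it touched, with no regard to strand. MKI67 (chr28:37271036-37299941, minus strand of canFam4) and CDK1 (chr4:13555900-13571497, plus strand) shared no base with another feature, and TOP2A (chr9:22157929-22187909, plus strand) shared 3.50% of its span with TAF12. CCNA2 (chr19:19144856-19151513) lay 100% inside EXOSC9, on the opposite strand, and PCNA (chr24:16930059-16936323) shared 97.1% of its span with the model PCNAP1. The models of CCNB1, RRM2 and UBE2C each covered stretches on several chromosomes, so their counts may hold reads of related sequences. TYMS, the thymidylate synthase that makes the nucleotide of T, shared 62.4% of its counted bases with ENOSF1 on the opposite strand. PRC1, a bundler of spindle microtubules, shared 75.8% of its span with PRC1-AS1 on the opposite strand, AURKA 62.8% with the model AURKAP1, and UBE2C 67.8% with UBE2CP5. RRM2 shared 11.6% with PUS10, which had 38777 counts in all against 4711 for RRM2. Reads from the shared bases cannot be told apart, and shared reads alone can make such pairs of features follow each other over the dogs. TYMS had a rho of -0.43 with the mean of the G2/M genes.

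The main comparison of the design is between dogs with and without congestive heart failure. None of the 40 genes passed the test between 10y-MMVD-CHF and 10y-noCHF dogs: 0 of 40 had a false discovery rate (FDR) under 0.1 in edgeR's quasi-likelihood test with sex in the model, where 0.118% of all tested features (23 of 19568) did. At an unadjusted p under 0.05 there were 0 of 40 genes, against 6.31% of all features. DESeq2 also gave 0 genes at either threshold, and limma voom gave 0 by FDR and 1, CCNB1, at an unadjusted p under 0.05. The lowest adjusted p of the 40 was 0.838. For all 40 genes the interval of 2 standard errors around the log2 fold change held 0. The 2 standard errors came to 0.14 (TYMS) to 0.55 (TTK). An estimate smaller than about this could not reach an unadjusted p under 0.05, and the FDR threshold asked for a larger one. Differences above 2 standard errors could thus be missed too. The ranges of the 2 groups overlapped in all 40 genes, and in 7 of them every 10y-MMVD-CHF dog lay inside the range of the 10y-noCHF dogs. The same counts were not made over all tested features. Overlap here and below therefore describes the values and shows nothing particular to these genes.

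MKI67 encodes Ki-67, the coat protein of mitotic chromosomes that pathologists stain to count cycling cells. In the 19 10y-noCHF dogs MKI67 ran from 5.45 to 27.99 CPM with a median of 15.7, and in the 15 10y-MMVD-CHF dogs from 6.41 to 33.4 CPM with a median of 12.9. The means were 15.8 ± 6.44 CPM (SD, n = 19) and 15.2 ± 8.52 CPM (SD, n = 15), and the log2 fold change was -0.05 (SE 0.23, p = 0.824). The groups overlapped almost entirely, and the spread within each of them was wide. TOP2A, the topoisomerase that untangles chromosomes before they part, ran from 4.37 to 24.5 CPM (median 11.6) without heart failure and from 4.97 to 29.8 CPM (median 9.98) with it. Its log2 fold change was 0.02 (SE 0.22, p = 0.910). ANLN, the anillin of the cytokinesis ring, ran from 2.24 to 13.03 CPM (median 6.29) and from 2.04 to 15.5 CPM (median 4.95), with a log2 fold change of -0.16 (SE 0.24, p = 0.489). In all 3 genes the highest dog of all 34 was the same 10y-MMVD-CHF male, CAV648.

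**Figure D1:**
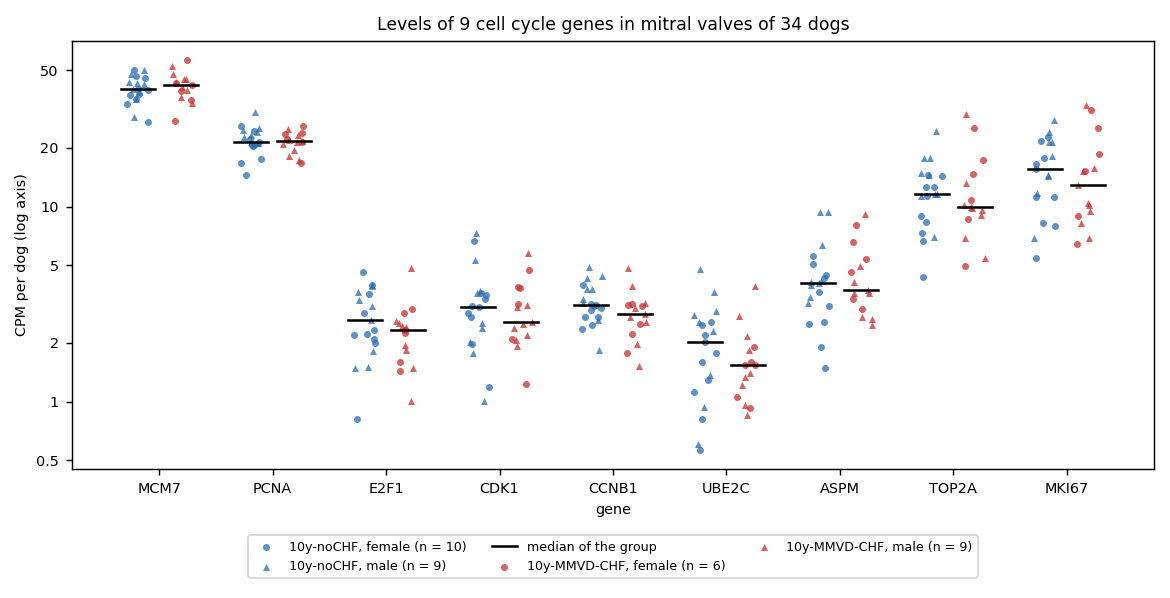
Level of 9 cell cycle genes in each of the 34 dogs, in CPM on a log axis, by CHF status (blue without, red with) and sex (circles female, triangles male), with a black bar for the median of each group. The 2 groups overlap in every gene, and MKI67 runs from 5.45 to 33.4 CPM while PCNA stays between 14.6 and 30.6 CPM.

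The 7 genes of helicase loading are MCM2 to MCM7, the subunits of the ring that opens DNA, and CDC6, which helps to load it. Of these 5 had a positive and 2 a negative estimate, and 0 of 7 passed the test. MCM7 ran from 27.2 to 50.4 CPM (median 40.3) in 10y-noCHF dogs and from 27.5 to 56.4 CPM (median 42.3) in 10y-MMVD-CHF dogs. Its log2 fold change was 0.05 (SE 0.085, p = 0.539), and 13 of the 15 10y-MMVD-CHF dogs lay inside the range of the others. MCM2 had the largest estimate of the group, and ran from 4.81 to 9.28 CPM (median 7.10) without and from 4.20 to 12.5 CPM (median 7.93) with heart failure. Its log2 fold change of 0.20 (SE 0.12, p = 0.111) was the largest positive one of the 40 genes. Both the lowest and the highest dog for MCM2 were 10y-MMVD-CHF males, CAV373 and CAV648.

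The other 4 G1/S genes are E2F1, the transcription factor at the head of the S phase wave, PCNA, the sliding clamp of the polymerases, RRM2, a subunit of ribonucleotide reductase, and TYMS. One of these (RRM2) had a positive estimate and 3 a negative one. E2F1 ran from 0.809 to 4.62 CPM (median 2.61) in 10y-noCHF dogs and from 1.003 to 4.85 CPM (median 2.33) in 10y-MMVD-CHF dogs, with a log2 fold change of -0.26 (SE 0.20, p = 0.204). PCNA ran from 14.6 to 30.6 CPM (median 21.5) and from 16.7 to 26.0 CPM (median 21.6), and its log2 fold change was -0.05 (SE 0.075, p = 0.549). All 15 10y-MMVD-CHF dogs were inside the PCNA range of the other group. The model of TYMS ran from 16.99 to 25.7 CPM (median 20.1) and from 15.1 to 25.8 CPM (median 20.3), with a log2 fold change of -0.07 (SE 0.071, p = 0.326), under the limit given above.

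Cyclins and mitotic kinases drive entry into mitosis, and all 7 of them (CDK1, CCNA2, CCNB1, CCNB2, PLK1, AURKA and AURKB) had a negative estimate, from -0.22 to -0.05. None of the 7 passed the test, and 47.4% of all features had a negative estimate. CCNB1, the cyclin that activates CDK1 at the start of mitosis, had the smallest p of the 40 genes. It ran from 1.85 to 4.89 CPM (median 3.12) in 10y-noCHF dogs and from 1.52 to 4.82 CPM (median 2.81) in 10y-MMVD-CHF dogs, and its log2 fold change was -0.22 (SE 0.13, p = 0.0951). The ranges of the groups were nearly the same. CDK1 itself, the kinase that cyclin B activates, ran from 1.01 to 7.32 CPM (median 3.05) and from 1.23 to 5.77 CPM (median 2.57), with a log2 fold change of -0.12 (SE 0.23, p = 0.584). AURKB, the kinase that corrects wrong spindle attachments, ran from 4.05 to 10.4 CPM (median 7.69) and from 4.05 to 10.5 CPM (median 7.44), with a log2 fold change of -0.10 (SE 0.12, p = 0.411). For CDK1 every 10y-MMVD-CHF dog lay inside the range of the 10y-noCHF dogs.

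The spindle checkpoint holds back chromosome separation until all chromosomes are attached, and the anaphase-promoting complex then releases it. Here 1 of 5 genes (TTK) had a positive and 4 (BUB1, BUB1B, CDC20 and UBE2C) a negative estimate. UBE2C, the ubiquitin-conjugating enzyme of that complex, ran from 0.566 to 4.77 CPM (median 2.01) in 10y-noCHF dogs and from 0.850 to 3.92 CPM (median 1.54) in 10y-MMVD-CHF dogs. Its log2 fold change of -0.31 (SE 0.24, p = 0.205) was the largest of the 40 genes in either direction, and it was smaller than 2 of its standard errors. CDC20, the activator of the complex, ran from 1.62 to 6.32 CPM (median 3.03) and from 1.64 to 5.80 CPM (median 2.70), with a log2 fold change of -0.24 (SE 0.17, p = 0.180). In both genes all 15 10y-MMVD-CHF dogs lay inside the range of the other group, although the lowest UBE2C counts per dog (36) were few.

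Kinetochore genes attach chromosomes to the spindle, and of these and the passenger gene BIRC5, 2 of 5 had a positive and 3 a negative estimate. NUF2, part of the NDC80 complex that grips microtubules, had the largest estimate of the group. It ran from 1.52 to 6.18 CPM (median 2.64) without and from 1.25 to 6.62 CPM (median 2.37) with heart failure, and its log2 fold change was -0.09 (SE 0.22, p = 0.665). BIRC5, the survivin that targets AURKB to the centromere, ran from 1.69 to 3.32 CPM (median 2.27) and from 1.74 to 3.90 CPM (median 2.15), with a log2 fold change of -0.04 (SE 0.12, p = 0.753). The aligned human model of BIRC5 held more counts, 15797 against 4991, and had a rho of 0.629 with the canine one. Its estimate had the other sign, 0.08 (SE 0.11, edgeR p = 0.434). The ranges of the groups overlapped in both genes.

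Spindle motors and microtubule regulators made up the largest group, with 5 of 9 estimates positive and 4 negative. KIF20A, a kinesin of the central spindle, had the largest estimate. It ran from 1.29 to 7.77 CPM (median 4.21) in 10y-noCHF dogs and from 1.63 to 8.23 CPM (median 3.82) in 10y-MMVD-CHF dogs, with a log2 fold change of -0.21 (SE 0.19, p = 0.268). ASPM, which focuses the poles of the spindle, ran from 1.49 to 9.42 CPM (median 4.05) and from 2.46 to 9.17 CPM (median 3.76), and its log2 fold change was 0.07 (SE 0.22, p = 0.749). KIF23, the kinesin of the midbody, ran from 1.54 to 8.40 CPM (median 3.79) and from 1.49 to 9.98 CPM (median 2.80), with a log2 fold change of -0.20 (SE 0.22, p = 0.363). The groups overlapped in all 3 genes.

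Over the 40 genes, 15 estimates were positive and 25 negative, where 52.6% of all features were positive and 47.4% negative. The median log2 fold change was -0.09 in the 29 G2/M genes and 0.03 in the 11 G1/S genes, and 0.01 over all tested features. Since the genes vary together from dog to dog, as shown further on, these signs are not independent of each other. Leaving out 1 dog moved the number of negative estimates to as few as 20 (without CAV743) and as many as 34 (without CAV1519).

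**Figure D2:**
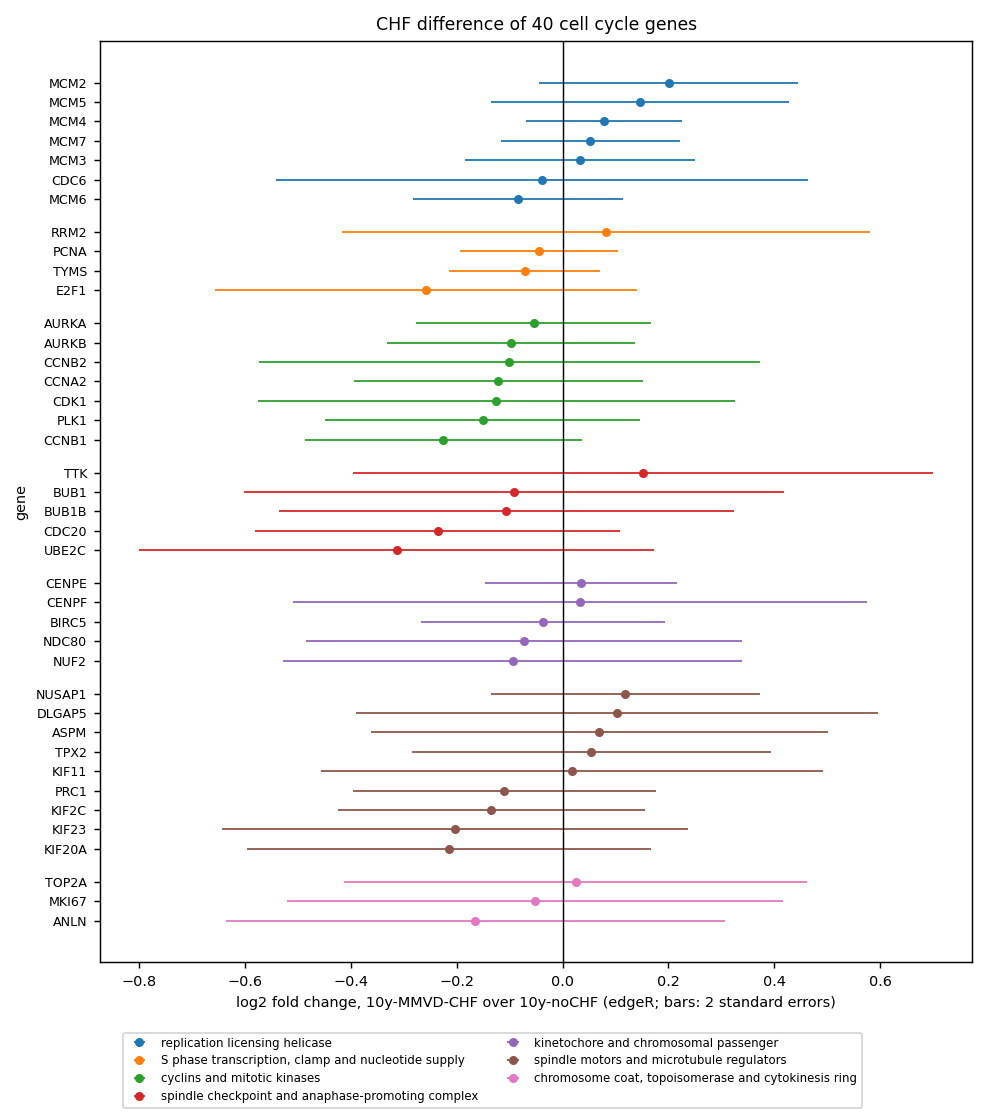
Log2 fold change of each of the 40 genes between 10y-MMVD-CHF (15 dogs) and 10y-noCHF (19 dogs) from the edgeR fit with sex, grouped by function, with bars of 2 standard errors. All 40 bars cross 0, and the estimates run from -0.31 in UBE2C to 0.20 in MCM2.

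The same was asked of 101 further tested genes of the cell cycle, in 5 lists. Of these 0 passed the FDR threshold in edgeR, and 4 of 101 had an unadjusted p under 0.05, where 6.31% of all features did. CDKN1A, the p21 inhibitor that holds cells in G1, had a mean of 92.9 ± 25.04 CPM (SD, n = 19) in 10y-noCHF and 76.8 ± 14.9 CPM (SD, n = 15) in 10y-MMVD-CHF dogs, a log2 fold change of -0.30 (SE 0.11) with an unadjusted p of 0.0120 and an adjusted p of 0.614. The others were CHAF1A, a subunit of the chromatin assembly factor (log2 fold change -0.24, SE 0.099, p = 0.0196), GINS3, a part of the replicative helicase (-0.16, SE 0.075, p = 0.0396), and LIN54, the DNA-binding part of the DREAM complex (0.16, SE 0.071, p = 0.0305). FOXM1, the factor that switches on G2/M genes, had a log2 fold change of -0.11 (SE 0.19, p = 0.571), MYBL2, its partner in this, one of -0.09 (SE 0.26, p = 0.730), and CCND1, the G1 cyclin, one of -0.01 (SE 0.10, p = 0.888). By list, 5 of 8 G1 cyclins and their kinases, 10 of 13 brakes, 6 of 16 transcription regulators, 8 of 24 replication genes and 20 of 40 further mitosis genes had a positive estimate.

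The 40 genes differed widely from dog to dog. The ratio of the highest to the lowest dog ran from 1.71 in TYMS to 16.1 in RRM2, with a median of 4.74. The biological coefficient of variation, the spread between dogs that edgeR estimates beyond the counting error of single reads, had a median of 0.433 in the G2/M genes and 0.231 in the G1/S genes. Over all tested features its median was 0.235, and over the 10734 features within the CPM range of all 40 genes 0.229. Of the 29 G2/M genes, 27 lay above the median of all features, and of the 11 G1/S genes 5. These are descriptions with no test. Since both reads of a pair were counted, some counting error stays in the coefficient, more so in genes with few counts. The CPM range was not matched to either list alone. Of the 6 helicase subunits MCM4 had a coefficient of 0.161, MCM7 one of 0.180 and MCM5 the highest, 0.291, while CENPF, a kinetochore gene, had 0.538 and TTK 0.540.

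The same few dogs were high in gene after gene. CAV648, a 10y-MMVD-CHF male, was the highest of all 34 dogs in 27 of the 40 genes and among the highest 3 in 33. CAV743, a 10y-noCHF male, was the highest in 6 genes and among the highest 3 in 28. Next came CAV1519, a 10y-MMVD-CHF female, which was among the highest 3 in 16 genes. High dogs were therefore found in both groups and in both sexes. Their summed level of the 29 G2/M genes was 291, 253 and 219 CPM, against a median of 125 CPM over all dogs. CAV648 also had the highest endothelial marker sum of all 34 dogs, 1703 CPM against a median of 809.5 CPM, and the part of endothelium in its levels was not tested. At the other end stood CAV1047, the 10y-MMVD-CHF female named above (86.9 CPM), and CAV748, a 10y-noCHF female (87.2 CPM). CAV1047 was among the lowest 3 dogs in 25 of the 40 genes. CAV1047, CAV748, CAV373 and CAV1731, the 4 dogs with the lowest G2/M sum, ranked 1, 6, 5 and 2 of the 34 in cardiomyocyte markers and 33, 32, 23 and 34 in macrophage markers, whose part in these levels was not tested.

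Summed over the 29 G2/M genes, the level ran from 87.2 to 253 CPM (median 141) in 10y-noCHF dogs and from 86.9 to 291 CPM (median 121) in 10y-MMVD-CHF dogs. Of the 15 10y-MMVD-CHF dogs 13 lay inside the range of the others. The highest dog was 3.35 times the lowest. Summed over the 11 G1/S genes, the level ran from 134 to 193 CPM (median 175) without and from 123 to 223 CPM (median 169) with heart failure, and the highest dog was 1.81 times the lowest. G1/S genes thus gave a narrower range than G2/M genes, also in sum.

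**Figure D3:**
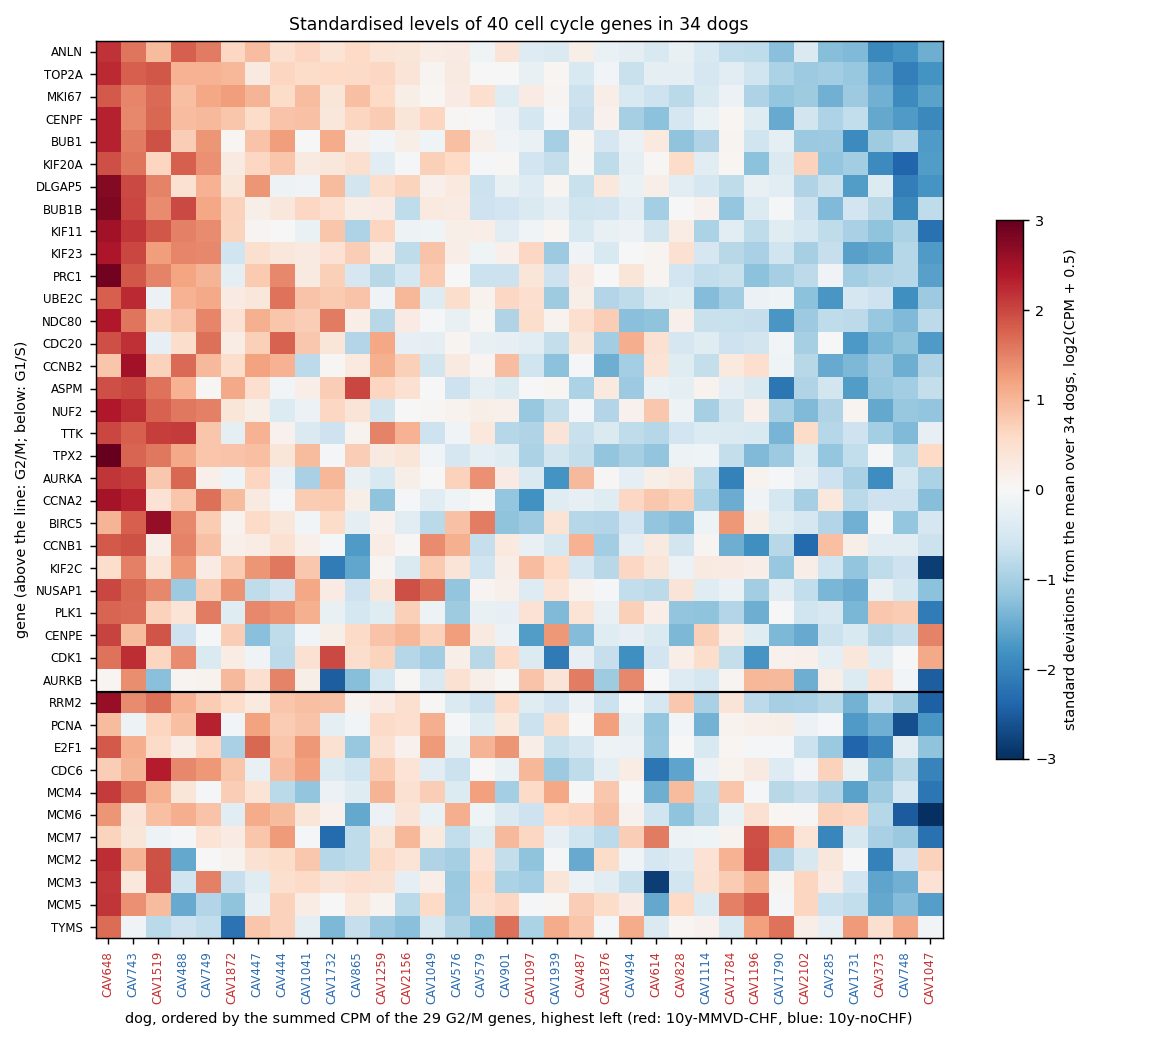
Level of each of the 40 genes (rows, G2/M genes above the line and G1/S genes below) in each of the 34 dogs (columns, from the highest to the lowest summed CPM of the G2/M genes), as standard deviations of log2(CPM + 0.5) from the mean over all dogs. CAV648 and CAV743 at the left are high in nearly all G2/M genes, CAV1047 at the right is low in most, and dogs with (red names) and without (blue names) heart failure are mixed along the axis.

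The genes therefore varied together. Over the 34 dogs, after the means of CHF status and sex were removed, the 406 pairs of G2/M genes had a median Spearman rho of 0.563, and 395 of them were above 0. The 55 pairs of G1/S genes had a median rho of 0.360, and the 319 pairs across both lists one of 0.354. As a description, all pairs share the same libraries and dogs, and a rho between genes with few counts is held down by counting error. The tightest pair was MKI67 with TOP2A, with a rho of 0.951. In 10y-noCHF dogs alone the G2/M median was 0.603, and in 10y-MMVD-CHF dogs alone 0.529, so the genes moved together within either group. Without CAV648, CAV743 and CAV1519, a choice made after their values were seen, it was 0.442. The first principal component of the 29 G2/M genes held 60.7% of their variance.

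Against the mean of the other G2/M genes, ANLN stood highest with a rho of 0.958, and TOP2A (0.927), MKI67 (0.902) and CENPF (0.887) came next. Of the 29 G2/M genes 26 had a rho above 0.5 and 10 one above 0.8. The exceptions were AURKB (0.074), CDK1 (0.242) and CENPE (0.370). AURKB and CDK1 also had the lowest rho of any G2/M pair, -0.41. Their mean levels were 3.12 CPM (CDK1) and 7.55 CPM (AURKB). Among the 11 G1/S genes, RRM2 followed the G2/M mean most closely (0.870), PCNA (0.663) and E2F1 (0.641) less so, and MCM5 (0.274), MCM3 (0.279) and MCM2 (0.286) little. The helicase subunits, which form one ring in equal numbers, had a median rho of 0.283 over their 15 pairs, from 0.051 to 0.700, the highest being MCM2 with MCM3.

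**Figure D4:**
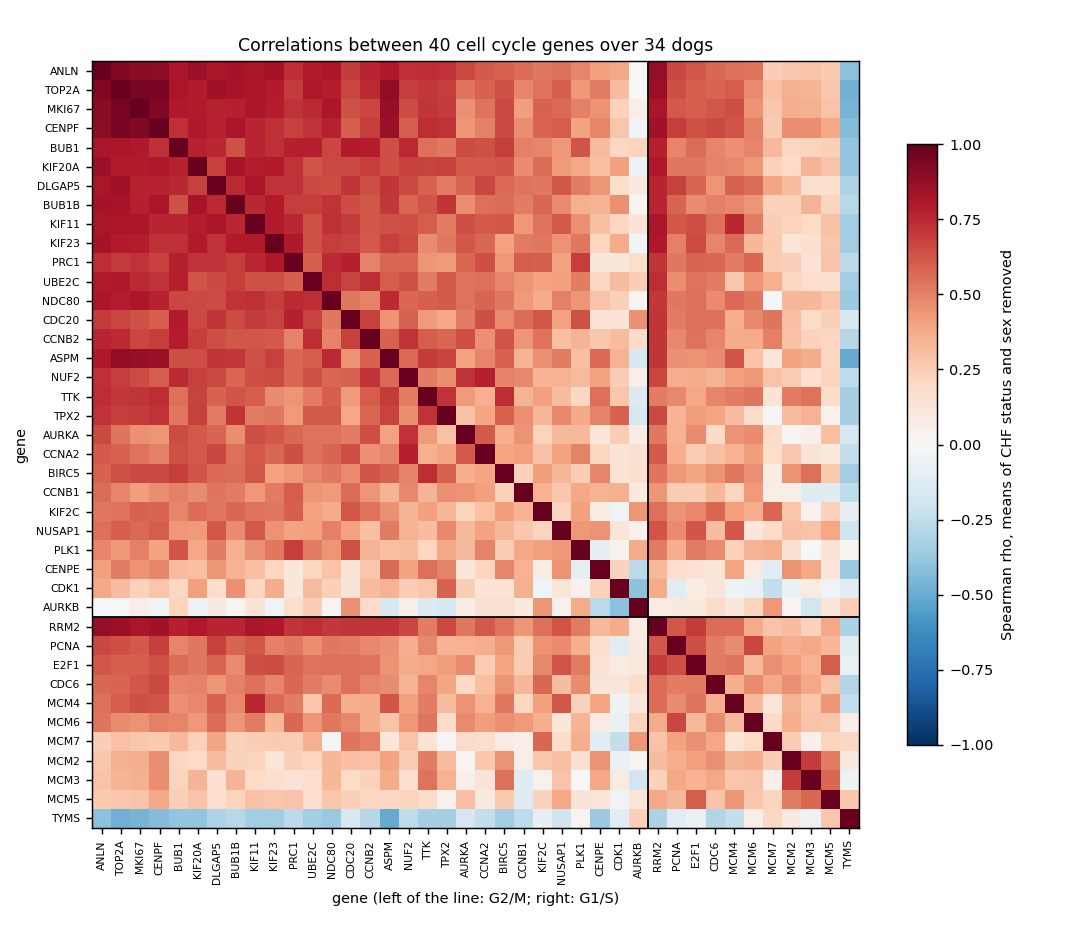
Spearman rho over the 34 dogs between each pair of the 40 genes, with the means of CHF status and sex removed and the genes ordered by their rho with the mean of the other G2/M genes. The block of G2/M genes at the upper left is high almost throughout (median 0.563), with AURKB, CDK1 and CENPE as pale rows, and TYMS is the blue row at the lower edge.

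Of all other tested features, the 10 whose level followed the mean of the G2/M genes most closely were ATAD2 (rho 0.888), CKAP2L, KNL1, DEPDC1, UBE2CP5, PRR11, ECT2, LYN, GALNT1 and IQGAP3 (rho 0.812). The median rho of all other features was -0.03. UBE2CP5 shares most of its reads with UBE2C and is no separate gene here. KNL1 is the scaffold of the outer kinetochore, CKAP2L a protein of the spindle, ECT2 the exchange factor that starts cytokinesis, and ATAD2 a chromatin ATPase, whereas LYN is a kinase of myeloid and B cells. LYN stood at 49.8 CPM and GALNT1, an enzyme that adds sugars to proteins, at 107 CPM, both above the highest mean of the 40 genes (MCM7, 41.04 CPM). Of the 40 further mitosis genes, 38 had a rho above 0 (median 0.654), and MYBL2 had one of 0.812. The 13 brakes had a median of 0.124, and CDKN1C, the p57 inhibitor, named after its value was seen, had the lowest at -0.67.

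Markers of other cells were read beside MKI67 in each dog, as the mean log2 CPM of 12 marker lists, each compared by a two-sided permutation test with 100000 resamples and adjusted over the 12 lists. Macrophage markers followed MKI67 most closely over the 34 dogs, with Pearson r 0.613 (permutation p = 0.00011, adjusted 0.00132) and Spearman rho 0.584 (permutation p = 0.00038, adjusted 0.00456). With CAV1047 and CAV1731 left out, whose marker values were the most extreme, r was 0.552. Within 10y-noCHF dogs r was 0.761 and within 10y-MMVD-CHF dogs 0.435, a difference that was not tested. All 11 macrophage markers had a rho above 0 with MKI67, from 0.064 in LYVE1 to 0.712 in MSR1, and none was at 0 in any dog. Their summed level ran from 596 to 2086 CPM in 10y-noCHF and from 732 to 1980 CPM in 10y-MMVD-CHF dogs. CAV743, with the second highest G2/M level, had the highest macrophage sum of all dogs, and CAV648 the eighth.

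Lymphocyte markers (r 0.464, permutation p = 0.00529, adjusted 0.0212) and valve interstitial markers (r 0.427, permutation p = 0.0122, adjusted 0.0319) were also higher in dogs with more MKI67. Schwann cell markers (r -0.47, permutation p = 0.00472, adjusted 0.0212), smooth muscle markers (r -0.42, permutation p = 0.0133, adjusted 0.0319) and adipocyte markers (r -0.39, permutation p = 0.0226, adjusted 0.0453) ran the other way. By Spearman's rho the first 4 of these lists had an adjusted p of 0.0368 and the adipocyte list one of 0.0654. With the 2 most extreme dogs of each list left out, r was 0.327, 0.269, -0.37, -0.33 and -0.27 in that order. With the G2/M genes in place of MKI67, r was 0.463, 0.221, -0.43, -0.45 and -0.23 in that order. These values, and the 0.513 of the macrophage markers, were not tested. Of the lymphocyte markers CD3D was at 0 in 8 dogs, CD8A in 6 and MS4A1 in 16, so that signal was low. Cardiomyocyte markers had r -0.19 (permutation p = 0.283, adjusted 0.424), and the remaining 5 lists (endothelium, mast cell, red blood cell, neutrophil and immediate-early genes) had an adjusted p of 0.424 or more for r. The part of macrophages or any other cell in the level of the cell cycle genes was not tested. With the macrophage markers regressed out, the median rho of the G2/M pairs was 0.479, and with the cardiomyocyte markers regressed out 0.548.

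Sex was the other labelled factor. In the fit over all 34 dogs, 0 of 40 genes differed between males and females by FDR in edgeR, where 0.143% of all features did, and 2 of 40 had an unadjusted p under 0.05, where 2.98% of all features did. DESeq2 gave 0 and 3, the further gene being UBE2C. KIF20A ran from 1.29 to 4.94 CPM (median 3.35) in the 16 females and from 1.63 to 8.23 CPM (median 4.23) in the 18 males, a log2 difference (male minus female) of 0.46 (SE 0.19, unadjusted p = 0.0217, adjusted p = 0.9997). KIF23 ran from 1.49 to 6.07 CPM (median 3.02) in females and from 1.63 to 9.98 CPM (median 3.89) in males, a log2 difference of 0.45 (SE 0.22, unadjusted p = 0.0458, adjusted p = 0.9997). The sexes overlapped over most of the range of both kinesins, and neither difference held after adjustment. Of the 40 genes 34 had a higher estimate in males, against 49.0% of all features, and the median log2 difference was 0.21 in the G2/M genes and 0.05 in the G1/S genes. Both of the dogs with the highest levels were males. Of the marker lists, 10 of 11 macrophage, 8 of 10 valve interstitial, 6 of 7 smooth muscle, 8 of 8 red blood cell and 6 of 7 neutrophil markers had a higher estimate in males, and 14 of 16 cardiomyocyte, 7 of 7 mast cell, 6 of 6 adipocyte and 10 of 11 immediate-early genes a lower one, with 0 past the FDR threshold. Their part in the sex estimates was not tested.

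The last question was whether the CHF difference was the same in females and males. By the interaction term 0 of 40 genes passed the FDR threshold in edgeR, as did 0 of all features (0%), and 2 of 40 had an unadjusted p under 0.05, where 6.02% of all features did. DESeq2 gave 0 and 3, the further gene being CDC6. ASPM ran from 1.49 to 5.57 CPM (median 3.37) in 10y-noCHF females and from 2.97 to 8.06 CPM (median 5.002) in 10y-MMVD-CHF females, and from 3.19 to 9.42 CPM (median 4.13) in 10y-noCHF males and from 2.46 to 9.17 CPM (median 3.60) in 10y-MMVD-CHF males. Its log2 fold change with heart failure was 0.58 in females and -0.37 in males (interaction -0.95, SE 0.41, unadjusted p = 0.0257, adjusted p = 0.815). PCNA ran from 14.6 to 25.9 CPM (median 20.8) and from 16.7 to 26.0 CPM (median 22.9) in the females, and from 21.1 to 30.6 CPM (median 23.4) and from 17.4 to 24.9 CPM (median 21.4) in the males. Its log2 fold change was 0.12 in females and -0.18 in males (interaction -0.30, SE 0.14, unadjusted p = 0.0420, adjusted p = 0.829). In each sex the groups overlapped in both genes.

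The direction of these 2 genes was shared by most of the list. For 36 of the 40 genes the interaction was negative, where 50.6% of all features had a negative one, and 20 of the 40 had a higher level with heart failure in females and a lower one in males, where 23.7% of all features did. MKI67 had a log2 fold change of 0.34 in females and -0.39 in males (interaction -0.74, SE 0.46, p = 0.118), and TOP2A one of 0.44 and -0.33 (interaction -0.77, SE 0.43, p = 0.0813). The median over the G2/M genes was 0.11 in females and -0.25 in males, and over the G1/S genes 0.14 and -0.03. These counts come from genes that vary together, so 36 signs are far from 36 separate observations. Of the marker lists, 10 of 10 valve interstitial, 9 of 11 macrophage and 10 of 11 lymphocyte markers had a negative estimate of the interaction too, with 0 past the FDR threshold. Among endothelial markers it was 5 of 10, smooth muscle 3 of 7, cardiomyocyte 6 of 16 and immediate-early genes 3 of 11. Estimates were mostly positive in the rest, with 0 of 6 adipocyte, 1 of 8 red blood cell, 2 of 7 mast cell, 2 of 7 neutrophil and 1 of 4 Schwann cell markers negative. The part of these cells in the result was not tested. In the further lists 65 of 101 genes had a negative interaction, 31 of the 40 further mitosis genes among them, with 0 past the FDR threshold and 8 at an unadjusted p under 0.05. CCND1 had the smallest of these p-values (interaction -0.63, unadjusted p = 0.00154, adjusted p = 0.815), with a log2 fold change of 0.32 in females and -0.30 in males. UHRF1, HMMR, KIF15, ESPL1 and INCENP had the same direction, while RB1 and CDCA3 had the opposite one.

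**Figure D5:**
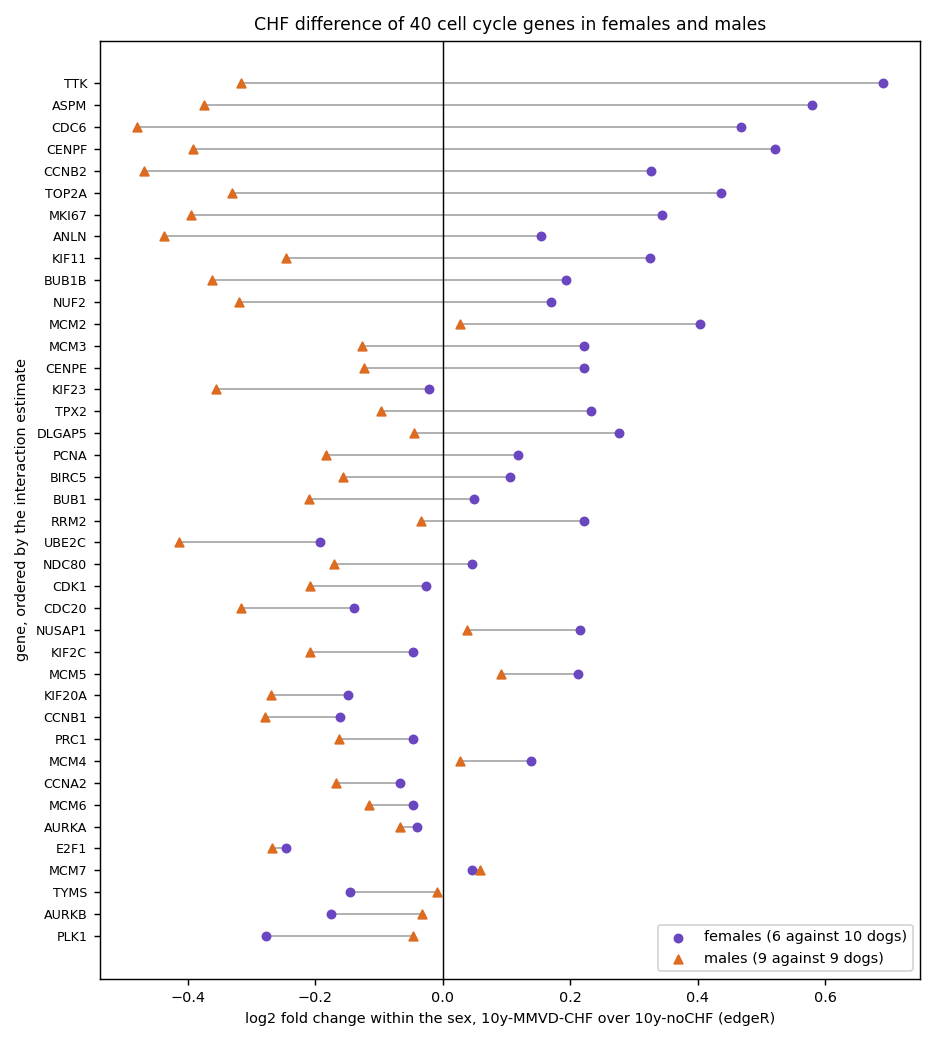
Log2 fold change between 10y-MMVD-CHF and 10y-noCHF dogs within females (circles, 6 against 10 dogs) and within males (triangles, 9 against 9 dogs) for each of the 40 genes, ordered by the interaction estimate. The female estimate lies to the right of the male one in 36 of 40 genes, and no interaction passed the FDR threshold.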

How the data were processed

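The deposited table holds raw counts per feature. Per the file header and the methods, the authors mapped polyA reads (paired-end) to canFam4 with STAR, whose version is not given in the sources used here, and made the counts with featureCounts 2.0.3, which gave each read of a pair to every feature it overlapped, with no strand. Features are 2165 canine RefSeq models and 21603 human models aligned to the dog genome. From these counts, features with a sum of at least 100 over the 34 labelled dogs were kept (19568), and 1 column of no labelled sample was left out. The tests used edgeR 4.0.16 in R 4.3.3 (quasi-likelihood, TMM, CHF status and sex, Benjamini-Hochberg over all features tested, FDR threshold 0.1). CPM are TMM-scaled, and correlations used log2(CPM + 0.5). The CHF term of the edgeR, limma voom and DESeq2 fits with sex in the model was tested on simulated counts. The sex and interaction terms, the covariate fits, the correlations and the permutation tests were not tested in this way. Alternatives were RLE and upper-quartile scaling, DESeq2 1.42.0, limma 3.58.1 voom, other filters, no sex term, each sex alone, marker means as covariates, other models of a gene, a threshold of 0.05 and leaving out dogs.

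The members and lists were chosen with earlier results of these data known. Genes named with values are MKI67, TOP2A, CDK1, CCNB1, PCNA and E2F1, members past a threshold in a comparison, and in each functional group the member of highest RPKM and that of largest fold change. The RPKM rule ran over both kinds of model, so it picks names and does not rank levels. Of the further lists, FOXM1, MYBL2, CCND1 and CDKN1A and genes at an unadjusted p under 0.05 are named. The dogs are separate animals. Intervals of 2 standard errors give the uncertainty of an estimated difference between groups of dogs, not the range of the single dogs. A planned count of motifs in promoters was not run.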

Additional observations from a re-analysis of the deposited data

Results flagged for a closer look

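A dog was marked where its gap to the next dog, as a share of the whole range of its group, passed Dixon's critical value. The groups held dogs of the same CHF status and sex. Gap and range were taken on the log2 scale of CPM that the correlations used. The levels beside the shares are plain CPM, so the shares do not follow from them directly. Of 168 such tests (40 genes and the 2 summed levels in 4 groups of dogs), 20 passed, and chance passes about 1 in 20 tests, which would be 8.4 here. The genes vary together, so these are not 20 separate events.

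CAV648, a 10y-MMVD-CHF male, accounted for 11 of the 20, always as the highest of 9 dogs. The shares were 0.504 in RRM2 (6.62 CPM, next dog 2.93), 0.578 in CDK1 (5.77, next 3.12), 0.574 in BUB1, 0.706 in BUB1B (8.76, next 2.91), 0.503 in CENPF (20.4, next 7.30), 0.517 in NDC80, 0.613 in KIF11 (14.2, next 5.12), 0.641 in TPX2 (14.7, next 6.17), 0.569 in DLGAP5 and 0.665 in PRC1 (18.5, next 9.11). For the summed level of the G2/M genes the share was 0.613 (291 CPM, next 145). This dog ranked 1 of 34 in endothelial markers (1703 CPM, median of all dogs 809.5), 8 in macrophage markers, 8 in cardiomyocyte markers 26 in lymphocyte markers and 30 in valve interstitial markers. Their part in its level was not tested.

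Low dogs were marked in 6 tests. CAV1047, a 10y-MMVD-CHF female, was lowest of 6 in MCM4 (share 0.661, 16.2 CPM, next 22.2) and MCM6 (0.688, 18.6 CPM, next 32.97). It also had the highest cardiomyocyte sum of all dogs (53620 CPM) and the lowest total of counts, and their part was not tested. CAV748, a 10y-noCHF female, was lowest of 10 in MCM6 (0.467) and BUB1B (0.517), and ranked 6 in cardiomyocyte markers. CAV1731 was lowest in E2F1 (0.472) and CAV1732 in AURKB (0.5), both 10y-noCHF females.

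High dogs other than CAV648 were CAV1041 in CDC6 (0.497, 1.86 CPM, next 1.18), CAV749 in PCNA (0.495, 30.6 CPM, next 25.5) and CAV1519 in BIRC5 (0.696, 3.90 CPM, next 2.39). No interaction of CHF and sex passed the FDR threshold in any of the 40 genes by edgeR or DESeq2.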

How the results depend on the processing

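No gene of the 40 passed the FDR threshold in the 14 alternatives and 34 fits without 1 dog run for CHF, the 5 alternatives run for sex or the 6 run for the interaction. The lowest adjusted p of any gene between dogs with and without CHF, in fits of both sexes, was 0.391 (CCNB1 by limma voom). Genes at an unadjusted p under 0.05 numbered 1 in place of 0 under voom (CCNB1), in females alone (MCM2), in males alone (PCNA), without CAV614 and CAV1047 (MCM4) and with macrophage markers as a covariate (CDC20), and 0 to 1 when each dog was left out. Negative estimates numbered 15 in females alone and 35 in males alone, against 25, and 20 to 34 with 1 dog left out. The features called overall were 64 by DESeq2, 13 with no sex term, 0 in either sex alone, 9 at a threshold of 0.05, and 8 (without CAV1519) to 28 (without CAV743) with 1 dog left out.

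Estimates near 0 changed sign. TOP2A (0.02) was -0.0734 under voom, -0.33 in males alone and -0.11 with macrophage markers, and -0.12 to 0.10 with 1 dog left out. MKI67 (-0.05) was 0.35 in females alone and 0.0483 without CAV614 and CAV1047, and -0.186 to 0.0121 with 1 dog left out. PCNA (-0.05) was 0.12 in females alone and 0.000121 without CAV614 and CAV1047. CDK1 was -0.23 to 0.00485 with 1 dog left out. Of the 40 genes, 14 changed sign among the fits of both sexes. The median of the G1/S genes was -0.06 to 0.06 and that of the G2/M genes -0.19 to -0.01 with 1 dog left out. The cause was not tested.

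Genes at an unadjusted p under 0.05 for sex numbered 1 with no filter and 1 without CAV614 and CAV1047, against 2. For the interaction they numbered 1 with cardiomyocyte markers, 4 without CAV614 and CAV1047 and 4 without CAV648, CAV743 and CAV1519, against 2. The last fit, the macrophage covariate and the matching correlations were chosen after seeing the data. The median rho of the G2/M pairs stayed between 0.442 and 0.608. No paired analysis was possible because the dogs are unpaired.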
